A study of Solanum tuberosum with 12 samples.

Results

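*StRIK*-RNAi lines 9 and 12 were compared with each other. Each gave 3 libraries of tuber periderm RNA, 6 of the 12 libraries of the series, and these 6 were taken by their line labels. The choice was made with earlier results of these data known. Both lines are cultivar Désirée potato plants (*Solanum tuberosum*) that carry a hairpin construct against *StRIK*, and each line comes from a single transformation event. A difference between them is therefore a difference between 2 clones. The 3 Wild type libraries, from Désirée without the construct, are given for reference only. All plants grew in soil with 12 h of light and 12 h of dark, and the skin was cut from freshly harvested tubers. That tissue holds mainly phellem and some phellogen.

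*StRIK* is the potato gene for the RS2-INTERACTING KH PROTEIN, a putative RNA-binding protein with K-homology domains. Periderm is the corky skin that replaces the epidermis of the tuber. Its phellem cells deposit suberin and limit water loss and infection, and the phellogen is the dividing layer that forms them. In RNA interference a hairpin transcript is cut into small RNAs that direct the loss of transcripts with the same sequence, and the extent of silencing usually differs between transformation events.

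The fragment used in the hairpin is shown because it decides which *StRIK* transcripts can be silenced and which reads can come from the transgene. It is 246 bases long, covers bases 758 to 1003 of the coding sequence of 1776 bases, and takes 21 bases from exon 8, all 118 bases of exon 9 (in capitals) and 107 bases from exon 10. It was spliced here from the genomic sequence given by the study, on the coding strand, by following the encoded protein of 592 residues.
StRIK silencing fragment: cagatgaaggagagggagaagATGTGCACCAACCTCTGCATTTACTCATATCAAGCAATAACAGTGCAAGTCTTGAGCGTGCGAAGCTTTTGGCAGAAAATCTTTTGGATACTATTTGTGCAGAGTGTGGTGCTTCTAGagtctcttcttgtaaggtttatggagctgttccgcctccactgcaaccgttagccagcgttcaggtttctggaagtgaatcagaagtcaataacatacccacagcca
Reads from the hairpin itself would carry this sequence and cannot be told apart from *StRIK* reads. The primer pair listed for cloning the fragment was not found in the coding sequence (at best 15 of 24 and 15 of 20 bases matched), so its ends rest on the stated coordinates.

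The values are effective counts, estimated counts per transcript from reads that were shared out among similar transcripts. Their totals ranged from 18947964 to 21111910 in the 6 libraries. The files of both lines carry the tag L7 and those of the Wild type the tag L6, whose meaning the sources used here do not give. The lines therefore share a tag and the Wild type does not share it. No 2 of the 6 libraries held the same values. Line 9 replicate 1 and line 12 replicate 1 stood apart from the others of their lines. Line 9 replicate 1 correlated with its line at 0.967 and 0.965 on log2 CPM and line 12 replicate 1 at 0.97 and 0.966, whereas the other pair of line 9 reached 0.978 and that of line 12 reached 0.99. Line 9 replicate 3 was closer to line 12 replicates 2 and 3 (0.983 and 0.982) than to its own line. Likewise line 12 replicate 1 was closer to line 9 replicate 2 (0.974) than to its own line. Results are therefore also given without these libraries where that changes them. No table used here names suberin genes among these identifiers, so the tissue was checked only by a few transcripts. The chlorophyll a-b binding protein 3C transcript (PGSC0003DMT400034892), a marker of green tissue, had 11.7, 4.58 and 9.72 normalized counts in line 9. In line 12 it had 12.3, 13.5 and 12.0, without overlap. The Rubisco large chain transcript (PGSC0003DMT400083063), another such marker, went the other way. It had 25.5, 44.00 and 3.89 in line 9 and 4.72, 1.04 and 2.18 in line 12, with overlap. These markers thus differed in direction between the lines. A phenylalanine ammonia-lyase transcript (PGSC0003DMT400055489), for the enzyme that opens phenylpropanoid synthesis, had 44540 to 89024 in the 6 libraries.

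*StRIK* was less reduced in line 9 than in line 12 on average, but the lines overlapped. The sum of the 3 isoforms that the fragment matches (PGSC0003DMT400064729, PGSC0003DMT400064730 and PGSC0003DMT400064731) was 45.1, 72.8 and 60.3 CPM in replicates 1, 2 and 3 of line 9. It was 50.9, 41.4 and 36.7 CPM in line 12. In the Wild type it was 87.5, 82.5 and 81.9 CPM. All 6 RNAi libraries thus lay below the Wild type, while line 9 replicate 1 lay among the line 12 libraries, below line 12 replicate 1. The means were 59.4 ± 13.9 CPM in line 9 and 43.0 ± 7.19 CPM in line 12 (SD, n = 3), which are 70.7% and 51.2% of the Wild type mean of 84.0 ± 3.06 CPM. The difference of 16.4 CPM exceeded the SD of either line, but the libraries overlapped and it did not pass the test (two-sided exact permutation test, p = 0.200, where 3 against 3 cannot go below 0.1). It was 9.67 CPM without line 9 replicate 2. Without replicate 1 of both lines, an alternative chosen after seeing the data, it was 27.5 CPM and the lines did not overlap (exact permutation p = 0.333, the smallest that 2 against 2 allow). Within line 9 the highest library had 86.7% and the lowest 53.7% of the Wild type mean.

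**Figure D1:**
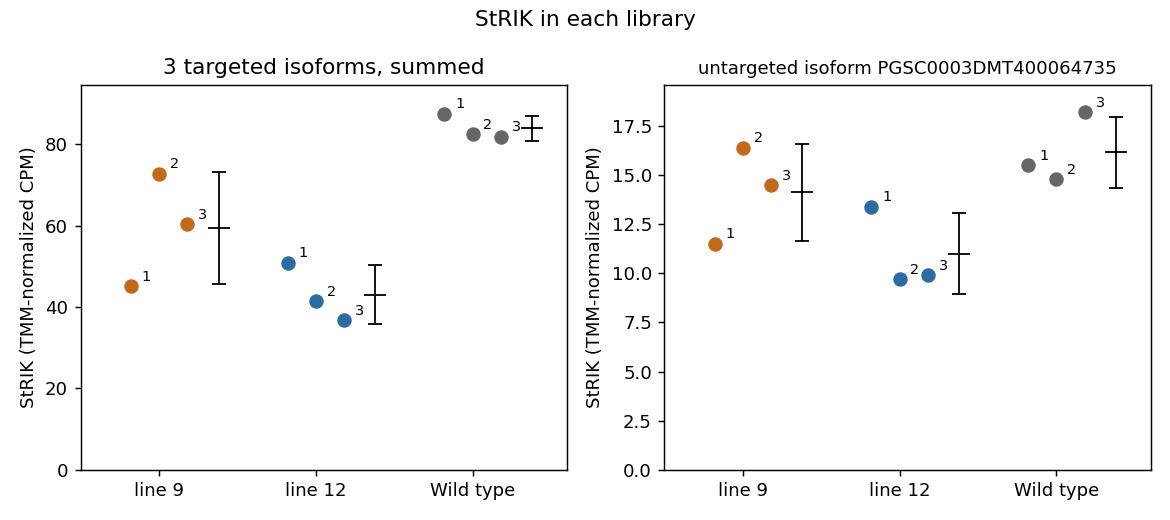
*StRIK* in each library in TMM-normalized CPM, as the sum of the 3 targeted isoforms (left) and as the isoform outside the fragment (right). Numbers beside the points are replicates, and the bars show the mean ± SD (n = 3). On the left line 9 spans 45.1 to 72.8 CPM and line 12 spans 36.7 to 50.9 CPM, so the lines overlap, and all 6 libraries lie below the Wild type.

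The 3 targeted isoforms behaved alike. Line 9 minus line 12 was 6.40 CPM for PGSC0003DMT400064729, 4.28 CPM for PGSC0003DMT400064730 and 5.70 CPM for PGSC0003DMT400064731, and line 9 overlapped line 12 in each. In edgeR's quasi-likelihood test the isoforms had log2FC values (line 9 over line 12) of 0.59, 0.42 and 0.41 with SE of 0.25, 0.21 and 0.23, and adjusted p of 0.600, 0.631 and 0.662. The fourth isoform, PGSC0003DMT400064735, lies outside the fragment. It had 11.5, 16.4 and 14.5 CPM in line 9 and 13.4, 9.71 and 9.90 CPM in line 12, against 15.5, 14.8 and 18.2 CPM in the Wild type. It followed the same order of libraries as the targeted sum in line 9 and overlapped between the lines (log2FC 0.36, SE 0.21, edgeR adjusted p = 0.669). Isoforms share reads, so these 4 values depend on how the reads were divided. The untargeted isoform took 19.4% ± 1.02 of the 4 isoforms in line 9, 20.4% ± 1.21 in line 12 and 16.1% ± 1.76 in the Wild type (SD, n = 3).

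Across all transcripts few differences between the lines passed the adjusted threshold of edgeR, and the number passing depended on the tool. A total of 36677 transcripts reached 10 counts when the 6 libraries were added up. Of these 3 passed the quasi-likelihood test of edgeR at an adjusted p of 0.05, 1 higher and 2 lower in line 9. That is 0.00818% of those tested, and all 3 are called by DESeq2 too, which called 214, while limma-voom called 1 of them and no other. Without adjustment 3049 transcripts had p under 0.05, of which 1805 (4.92%) were higher and 1244 (3.39%) lower in line 9. The 3 line 9 libraries lay above the 3 line 12 libraries for 2708 transcripts (7.38%) and below them for 2551 (6.96%). Together these were 5259, and 7258 to 11833 with any 1 library left out or 17857 without replicate 1 of both lines, since fewer libraries overlap less often by construction. The median log2FC over all transcripts tested was 0.02. Of the transcripts that did not overlap, 717 had a line 9 mean at least 2 times that of line 12 and 450 the reverse.

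**Figure D2:**
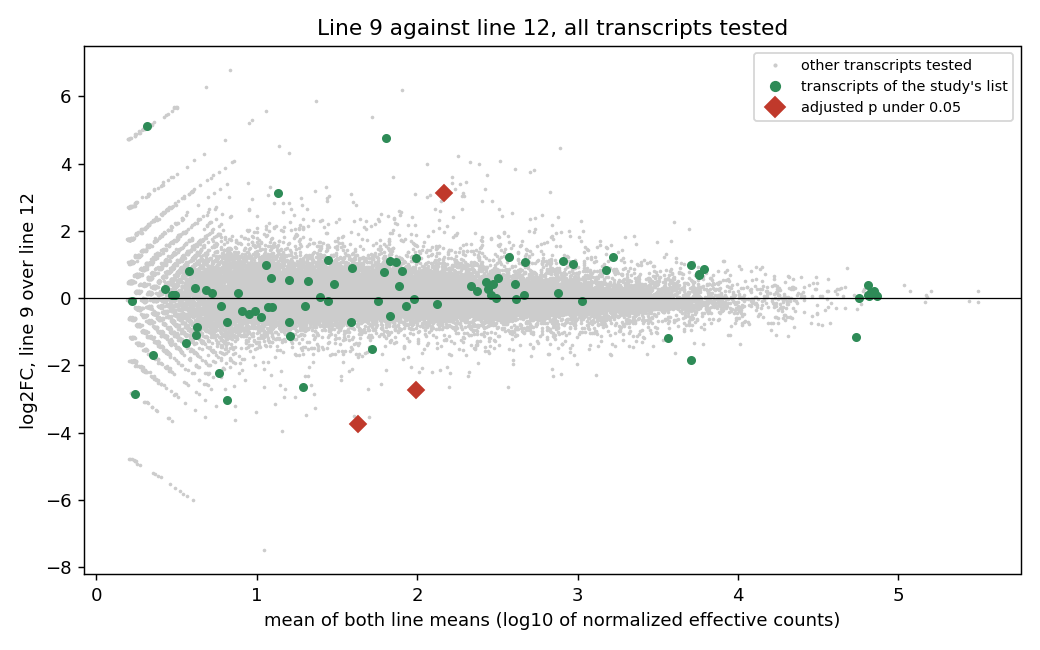
Log2FC of line 9 over line 12 against the mean level of both lines (log10 of normalized effective counts) for the 36677 transcripts tested. Red diamonds mark the 3 transcripts with an adjusted p under 0.05 and green points the tested transcripts of the study's list, of which 0 passed. The highly abundant green point below the rest is the dehydrin transcript, with a log2FC of −1.17.

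The single called transcript that was higher in line 9 than in line 12 was PGSC0003DMT400096877. It had 282, 256 and 255 normalized effective counts in line 9, counts scaled by TMM to a library size of 19954257. In line 12 it had 33.95, 24.0 and 32.7, and in the Wild type 31.0, 42.5 and 29.0. All 3 libraries of line 9 stood far above line 12, which lay within the range of the Wild type in replicates 1 and 3 and under it in replicate 2. In line 47, another *StRIK*-RNAi line of the series, it had 201 to 306, so the high level was not particular to line 9. The log2FC was 3.12 (SE 0.20, edgeR adjusted p = 0.0135).

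PGSC0003DMT400032741 was lower in line 9, and here line 12 was the line that stood apart from the Wild type. Line 9 had 25.5, 30.2 and 22.3 normalized counts, line 12 had 191, 174 and 151, and the Wild type had 25.8, 15.8 and 17.6. Line 47 had 15.2 to 24.0. The log2FC was −2.72 (SE 0.21, edgeR adjusted p = 0.0246).

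PGSC0003DMT400056809 fell in line 9 to near the floor, which was set at 3 normalized counts. Counting error alone can turn a mean of that size into a count of 0, and the floor is no strict limit. Its 3 libraries had 4.24, 4.58 and 8.75 normalized counts. Line 12 had 83.9, 83.3 and 72.0, and the Wild type 144, 123.48 and 121, so that both lines lay below the Wild type and line 9 much further. Line 47 had 92.0 to 125. The log2FC was −3.74 (SE 0.32, edgeR adjusted p = 0.0370).

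None of the 3 has a name in the tables used here, and none is in the study's list of 101 transcripts that differ between *StRIK*-RNAi and Wild type periderm. Their fitted log2FC moved little between fits, while their calls did not hold in all of them. Over all 17 fits the log2FC stayed between 2.98 and 3.22, between −2.84 and −2.62 and between −4.14 and −3.54, respectively. Leaving out any one of line 9 replicates 1 and 2 or line 12 replicates 1, 2 and 3 ended all 3 calls, and without line 9 replicate 3 there were 5 calls, 2 of them among these 3.

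**Figure D3:**
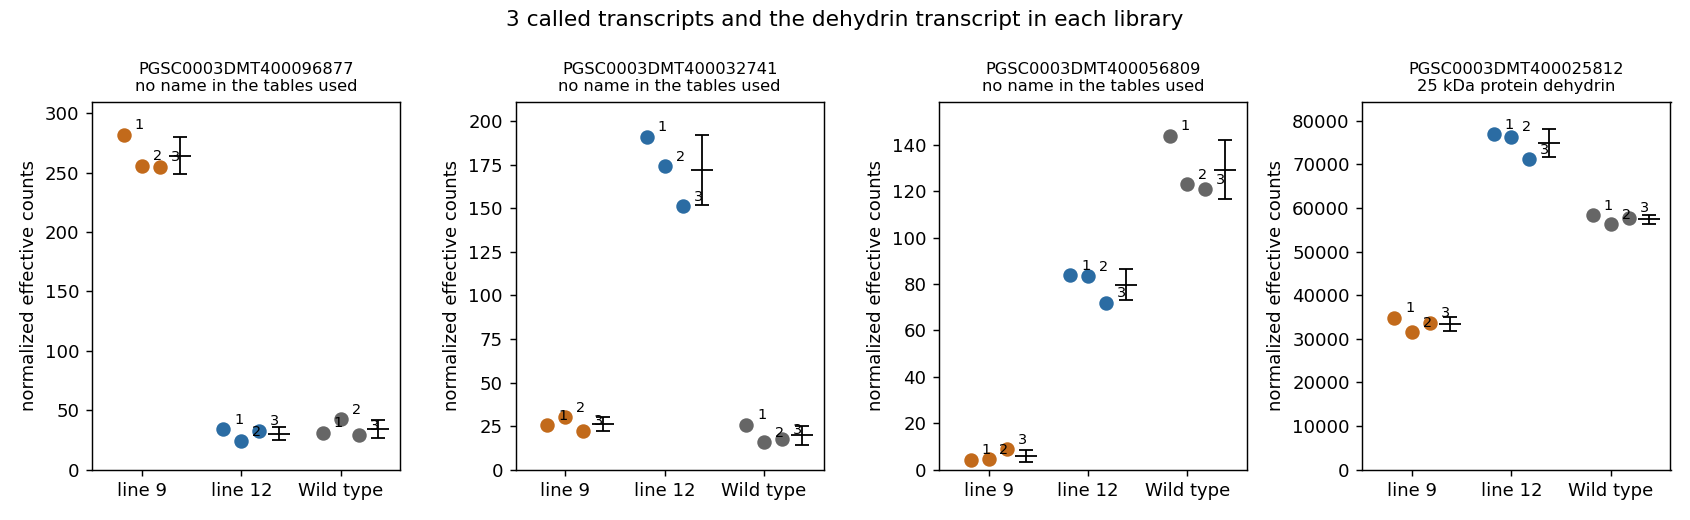
Normalized effective counts of the 3 called transcripts and of the dehydrin transcript PGSC0003DMT400025812 in each library. Points are replicates, numbered, with the mean ± SD (n = 3) beside them. Of the groups shown, line 9 stands apart in PGSC0003DMT400096877 and PGSC0003DMT400056809, line 12 in PGSC0003DMT400032741, and the Wild type lies between the lines for the dehydrin. Line 47, not shown, was at the level of line 9 in PGSC0003DMT400096877.

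The study's list groups its transcripts by function. It was drawn from a comparison of *StRIK*-RNAi with the Wild type that included line 9 replicate 1 and line 12 replicates 2 and 3, so its members were chosen partly on these libraries and its counts are a description. Of its 101 transcripts 88 were tested here and 0 passed edgeR's adjusted threshold. Without adjustment 16 had p under 0.05 with higher values in line 9 and 9 with lower values, where 4.92% and 3.39% of all transcripts tested did. DESeq2 called 5 and limma-voom 0, where they called 214 and 1 of all 36677 transcripts tested. Of the 5, 2 were rRNA-like transcripts. The libraries did not overlap for 15 transcripts that were higher and 9 that were lower in line 9, against 7.38% and 6.96% of all transcripts tested. Without 9 rRNA-like and 2 chloroplast transcripts the 77 others had 7 higher and 9 lower at an unadjusted p under 0.05, and 8 higher and 9 lower without overlap. The median log2FC of the 88 was 0.11, against 0.02 for all transcripts tested.

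Leaving *StRIK* out, 85 listed transcripts could be placed relative to the Wild type by their means. Both lines lay above the Wild type for 58 of them, and line 12 was the further of the lines for 29 and line 9 for 29. Both lay below it for 20, and there line 12 was the further for 15 and line 9 for 5. The Wild type mean fell between the lines for 6, and for 1 a line mean equalled it. The 15 include the listed transducin transcripts, which share an annotation. More libraries of line 12 than of line 9 entered the choice of the list. That choice can favour line 12 as the further line, so these positions are a description.

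The clearest listed difference was that of the 25 kDa dehydrin transcript PGSC0003DMT400025812. Dehydrins are hydrophilic proteins that accumulate in plant cells during drying, cold and in response to abscisic acid. Line 9 had 34819, 31554 and 33689 normalized counts and line 12 had 76919, 76381 and 71145. The Wild type, with 58298, 56225 and 57742, lay between them. The groups were far apart and each was tight, line 12 having 2.24 times the mean of line 9. The log2FC was −1.17 (SE 0.23), and at an unadjusted p of 0.000993 the edgeR adjusted p was 0.507. Over the 17 fits the log2FC stayed between −1.21 and −1.13. The adjusted p was 0.101 with all 12 libraries in the fit and 8.23e-10 with DESeq2. It was the only one of the 9 listed transcripts above 10000 normalized counts in which the lines did not overlap.

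The stress transcripts went in both directions. Of 12 tested, with the dehydrin, 10 were fitted higher and 2 lower in line 9, with a median log2FC of 0.65. Of all 36677 transcripts tested, 19124 were fitted higher. Without an rRNA-like and a chloroplast transcript 8 of 10 were fitted higher and the median was 0.42. The dehydration responsive element binding protein transcript (PGSC0003DMT400061541), whose Arabidopsis match DREB2A is a transcription factor of drought and heat responses, was the other lower one. It had 39.2, 23.8 and 18.5 normalized counts in line 9 and 116, 34.4 and 80.7 in line 12, where replicate 2 lay within the range of line 9. Its log2FC was −1.51 (SE 0.47, edgeR adjusted p = 0.542). In the Wild type it had 2.07, 1.98 and 4.15. The large chain of Rubisco (PGSC0003DMT400083063), the carbon-fixing enzyme of the chloroplast, had 25.5, 44.00 and 3.89 normalized counts in line 9 and 4.72, 1.04 and 2.18 in line 12. Replicates 1 and 2 of line 9 were high and replicate 3 lay within line 12 (log2FC 3.12, SE 0.92, edgeR adjusted p = 0.538).

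Proteolysis was the category whose tested members were all fitted lower in line 9, 4 of 4, with a median log2FC of −2.25, and 2 of them did not overlap. Of all 36677 transcripts tested, 17553 were fitted lower in line 9 and 6.96% lay below line 12 without overlap. Kunitz inhibitors are small plant proteins that block serine proteases and are known from wound and herbivore responses. The Kunitz inhibitor transcript PGSC0003DMT400026262 had 1633, 1829 and 3161 normalized counts in line 9 and 2716, 9079 and 12145 in line 12. Replicate 1 of line 12 was low and lay within line 9 (log2FC −1.85, SE 0.53, edgeR adjusted p = 0.537). The Wild type had 411, 561 and 376, below every library of both lines.

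A second Kunitz match, PGSC0003DMT400026261, had 1097, 3228 and 2429 in line 9 and 3839, 4562 and 6938 in line 12. Here the lines did not overlap (log2FC −1.18, SE 0.40, edgeR adjusted p = 0.556). PGSC0003DMT400024552, a match to cystatins, which inhibit cysteine proteases, had 8.49, 5.50 and 1.94 in line 9 and 38.7, 15.6 and 45.8 in line 12, again without overlap (log2FC −2.64, SE 0.58, edgeR adjusted p = 0.529). DESeq2 gave adjusted p of 0.0375 for PGSC0003DMT400026262, 0.232 for PGSC0003DMT400026261 and 0.0202 for PGSC0003DMT400024552. By their matches all 3 belong to inhibitor families, and the fourth, a Ulp1 protease family transcript, had at most 4.36 normalized counts in any library. The Kunitz transcripts share an Arabidopsis match, and how reads were divided between them was not tested. The category may therefore count fewer genes than members.

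**Figure D4:**
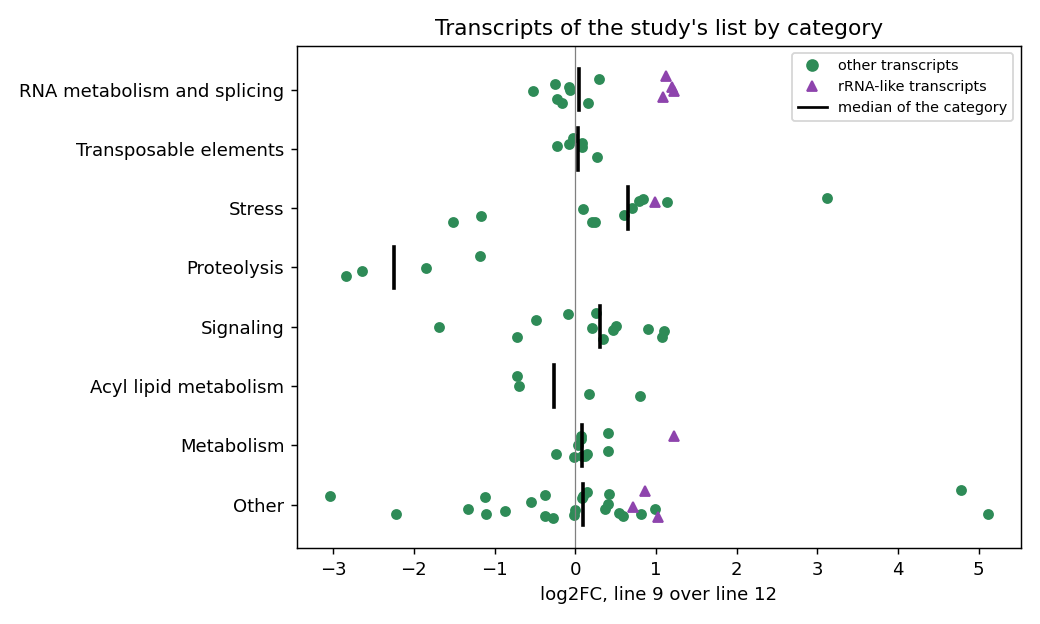
Log2FC of line 9 over line 12 for the tested transcripts of the study's list, by category. Each point is a transcript, triangles are rRNA-like transcripts and black lines are category medians, at −2.25 for proteolysis and 0.65 for stress. All 9 rRNA-like transcripts lie between 0.72 and 1.23.

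In RNA metabolism and splicing, 4 of 12 tested transcripts had an unadjusted p under 0.05 in edgeR, all higher in line 9. Of all transcripts tested 4.92% were higher and 3.39% lower at that p. All 4 are annotated as rRNA intron-encoded homing endonucleases, enzymes whose genes lie within introns. PGSC0003DMT400091537 had 659, 735 and 531 normalized counts in line 9 and 418, 235 and 253 in line 12. PGSC0003DMT400094705 had 1154, 1256 and 911 in line 9 and 727, 396 and 409 in line 12. PGSC0003DMT400085242 had 522, 630 and 419 in line 9 and 342, 161 and 170 in line 12. In each, line 12 replicate 1 was the highest of its line and line 9 replicate 3 the lowest of its own, and the lines did not overlap. Their log2FC values were 1.09, 1.12 and 1.22 (SE 0.26, 0.27 and 0.32), each with an edgeR adjusted p of 0.529. The Wild type overlapped line 12 in each, for example with 361, 240 and 257 for PGSC0003DMT400091537.

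These belong to a set of 9 listed rRNA-like transcripts that was put together from their annotations and from their counts in these libraries, among them a transcript annotated as cytochrome P450 like_TBP (PGSC0003DMT400049003) and PGSC0003DMT400092218. Since shared counts helped to choose the 9, their shared direction is a description. All 9 were fitted higher in line 9, with log2FC from 0.72 to 1.23 and a median of 1.09, and 6 lay above line 12 without overlap, as did 7.38% of all transcripts tested. DESeq2 called 2 of them, PGSC0003DMT400091537 (adjusted p = 0.0462) and PGSC0003DMT400094705 (adjusted p = 0.0475). It called 214 of all 36677 transcripts tested. PGSC0003DMT400049003 had 2390, 2934 and 1732 normalized counts in line 9 and 1596, 735 and 667 in line 12, and PGSC0003DMT400092218 had 1183, 1553 and 1037 against 891, 452 and 506. As a sum the 9 took 0.143%, 0.169% and 0.109% of the counts of line 9 and 0.121%, 0.0581% and 0.0451% of those of line 12, so that line 12 replicate 1 lay within line 9. The amount of ribosomal RNA left in a library was not measured otherwise, and its part in these values was not tested. Without the rRNA-like and chloroplast transcripts, the 8 other transcripts of RNA metabolism had log2FC values from −0.52 to 0.29 and 0 had an unadjusted p under 0.05 in edgeR, with 0 called by DESeq2 and limma-voom.

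The signaling transcripts were mostly fitted higher in line 9, 8 of 12, with a median log2FC of 0.31. Of all 36677 transcripts tested, 19124 were fitted higher. The signaling transcripts that led were 3 annotated as signal transducer. Their Arabidopsis match is a phototropic-responsive NPH3 family protein, of the kind that acts below blue light receptors. PGSC0003DMT400047866 had 114, 104 and 84.5 normalized counts in line 9 and 34.9, 47.9 and 60.0 in line 12. PGSC0003DMT400047867 had 107, 87.1 and 82.6 against 24.5, 42.7 and 62.2, and PGSC0003DMT400047864 had 57.3, 58.7 and 37.9 against 23.6, 20.8 and 38.2. The first 2 did not overlap and the third did, by line 9 replicate 3. Their log2FC values were 1.08, 1.10 and 0.90 (SE 0.25, 0.33 and 0.32) with edgeR adjusted p of 0.529, 0.538 and 0.563. All libraries of both lines were above the Wild type, whose highest values were 21.7, 17.6 and 5.93. They share an annotation, and how reads were divided among them was not tested. The transducin transcripts PGSC0003DMT400054499, PGSC0003DMT400054501, PGSC0003DMT400054500 and PGSC0003DMT400054498, which also share an annotation, were fitted higher too. Their log2FC values were 0.47, 0.35, 0.26 and 0.21. Members that share an annotation may not be separate genes, so 8 of 12 may count few genes.

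The listed transposable elements that lay well above the floor differed little between the lines. The retrotransposon protein transcript PGSC0003DMT400041204 had 566, 470 and 405 normalized counts in line 9 and 487, 457 and 415 in line 12, against 13.4, 63.2 and 28.0 in the Wild type. The transposase transcript PGSC0003DMT400039369 had 314, 269 and 313 in line 9 and 260, 281 and 303 in line 12, against 935, 1499 and 1211 in the Wild type. Both lines were thus on the same side of the Wild type and overlapped each other, with log2FC of 0.09 (SE 0.18) and 0.09 (SE 0.15) and edgeR adjusted p of 0.915 and 0.901. A MuDR transposon transcript (PGSC0003DMT400085583) was low in both, at 3.18 to 7.77 in line 9 and 5.45 to 8.33 in line 12. A LINE-type retrotransposon (PGSC0003DMT400092517) and a TNP2 transcript (PGSC0003DMT400046437) were low too, with at most 3.27 and 8.75 in either line. Over the 6 tested elements the log2FC ranged from −0.23 to 0.27. The SE was 0.54 for the MuDR, 1.09 for the LINE-type and 1.54 for the TNP2 transcript. Their log2FC values therefore cannot show whether the lines were alike. An RNase H family transcript of the same pattern, PGSC0003DMT400063700, singled out after its values were seen, had 855, 893 and 662 in line 9, 823, 702 and 631 in line 12 and 23.8 to 87.9 in the Wild type. RNase H enzymes cut RNA paired with DNA.

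Metabolism and acyl lipid transcripts had 1 of 15 tested with an unadjusted p under 0.05 in edgeR, the rRNA-like PGSC0003DMT400049003, higher in line 9. Of all transcripts tested 4.92% were higher and 3.39% lower at that p. A glucosyltransferase transcript (PGSC0003DMT400070122) had 35.0, 36.7 and 33.0 normalized counts in line 9 and 27.3, 25.0 and 26.18 in line 12 without overlap (log2FC 0.41, SE 0.23, edgeR adjusted p = 0.662). The abundant ones overlapped. The phenylalanine ammonia-lyase transcript PGSC0003DMT400055489 had 89024, 60091 and 70429 in line 9 and 74804, 47439 and 44540 in line 12 (log2FC 0.40, SE 0.31), and PGSC0003DMT400049886, of the same enzyme, had 99206, 50695 and 73380 against 42116, 73471 and 90181 (log2FC 0.12, SE 0.38). Catalase (PGSC0003DMT400075611), peroxidase (PGSC0003DMT400012995), DAHP synthase (PGSC0003DMT400079161), polyubiquitin (PGSC0003DMT400089149), metallothionein (PGSC0003DMT400077957) and oleate desaturase (PGSC0003DMT400082017) had log2FC of 0.07, 0.09, −0.01, 0.07, 0.21 and 0.17 with SE of 0.24 to 0.30. Among the acyl lipid transcripts the highest log2FC was 0.80, for a stearoyl-ACP desaturase (PGSC0003DMT400079076) with at most 9.17 normalized counts, and the lowest was −0.72, for an acetyl-CoA carboxylase subunit (PGSC0003DMT400042102) with at most 9.37. PGSC0003DMT400057213, whose Arabidopsis match is a fatty acid desaturase, had 38.2, 21.1 and 29.2 against 64.1, 33.3 and 45.8, with overlap (log2FC −0.70, SE 0.34, edgeR adjusted p = 0.625).

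Among listed transcripts with reads in both lines, the highest fitted log2FC was that of copper transporter 1 (PGSC0003DMT400053689), a membrane protein that takes up copper. The transcript annotated as ORF107c (PGSC0003DMT400085260) had 3.18, 6.42 and 2.92 normalized counts in line 9 and 0 in all 3 libraries of line 12. It was grouped here with the chloroplast transcripts, though its annotation names no organelle. Copper transporter 1 had 69.0, 253 and 45.7 normalized counts in line 9 and 10.4, 0 and 2.18 in line 12, and was at 0 in all 3 Wild type libraries. Line 9 was higher in every library, but its replicates ranged widely, and the edgeR adjusted p was 0.507 (log2FC 4.78, SE 0.98). The transcripts with the 2 preceding identifiers had the same pattern. PGSC0003DMT400053687 had 36.1, 90.7 and 11.7 in line 9 and 1.89, 0 and 0 in line 12, and PGSC0003DMT400053688, named after its values were seen, had 77.4, 188 and 42.8 against 6.60, 0 and 0. Reads may have been shared among these 3. A transcript of unknown function, PGSC0003DMT400096818, was reversed, at 2.12, 1.83 and 0 in line 9 and 7.54, 16.7 and 10.9 in line 12 (log2FC −3.04, SE 0.78, edgeR adjusted p = 0.529).

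PGSC0003DMT400053687 was 1 of 4 transcripts at the floor in all 3 libraries of one line and at 10 normalized counts or more in all 3 of the other. Of these 3 were at the floor in line 12 and 1 in line 9. In edgeR 0 had an adjusted p under 0.05 and all 4 an unadjusted p under it, and DESeq2 called 2 and limma-voom 0. They were chosen by their values in these same libraries, so low p-values and calls follow largely from the choice and are no support. The number of such transcripts was 5 to 11 with any 1 library left out and 21 without replicate 1 of both lines. For PGSC0003DMT400053687 the mean of line 9 was 15.4 times the floor of 3, with libraries from 11.7 to 90.7. For PGSC0003DMT400049757 it was 4.43 times the floor, with 10.6, 14.7 and 14.6 in line 9 and 0.943, 1.04 and 0 in line 12. The reverse case, PGSC0003DMT400013356, had 0, 2.75 and 2.92 in line 9 and 14.1, 12.5 and 10.9 in line 12. Its line 12 mean was 4.17 times the floor. Each of the last 2 had some reads in the Wild type, from 0 to 7.24. No transcript was at the floor in one line with 30 normalized counts or more throughout the other.

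Transcripts that share a short stretch with the fragment could be silenced along with *StRIK*. The study lists 7 such transcripts besides its isoforms and held cross-silencing to be unlikely, as the matches are partial and short. Both lines carry the same hairpin, so a comparison of the lines cannot show whether these transcripts are silenced. Of the 7, 6 were tested here. The 6 had a median log2FC of −0.20, and 0 passed in edgeR, with 0 called by DESeq2 and limma-voom. At an unadjusted p under 0.05 in edgeR 4.92% of all transcripts tested were higher and 3.39% lower in line 9. Of the 6 matching transcripts, 1 reached that p and was higher in line 9. That was an ATP binding protein transcript (PGSC0003DMT400042918), which had 158, 225 and 131 normalized counts in line 9 and 118, 87.5 and 122.18 in line 12. The lines did not overlap (log2FC 0.65, SE 0.25, edgeR adjusted p = 0.590), and the Wild type, at 129, 111 and 176, overlapped both. The 3 EMB1865 transcripts, of a gene whose Arabidopsis namesake is an embryo-defective locus, were fitted lower in line 9, with log2FC of −0.32 (PGSC0003DMT400014640), −0.16 (PGSC0003DMT400014644) and −0.37 (PGSC0003DMT400014643) and SE of 0.28, 0.19 and 0.22, and the last did not overlap. A transcript of unknown function (PGSC0003DMT400055483) and a Dnajc14 transcript (PGSC0003DMT400073845) had log2FC of −0.24 (SE 0.20) and 0.03 (SE 0.16). The extensin transcript PGSC0003DMT400030423 had at most 2.92 normalized counts and was not tested.

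The Wild type mean lay between the line means for 1618 (59.7%) of the 2708 transcripts whose line 9 libraries were all above line 12, and for 1575 (61.7%) of the 2551 whose line 9 libraries were all below. It lay under both for 504 and 551 and over both for 586 and 425, respectively. The file tag separates the Wild type from both lines, so these positions cannot be told apart from an effect of the tag.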

How the data were processed

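The authors sequenced periderm RNA on an Illumina HiSeq, mapped the reads with Bowtie2 to transcripts of the *S. tuberosum* Group Phureja genome and deposited the effective counts of eXpress 1.5.1, which are estimated counts per transcript, not normalized between libraries. Read quality was checked with FastQC 0.11.2. Each library holds 54416 transcripts, with no names.

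Effective counts were rounded. Transcripts that reached 10 counts in the sum of the 6 libraries were tested with edgeR 4.0.16 in R 4.3.3 (TMM, glmQLFit and glmQLFTest, Benjamini-Hochberg over all 36677, threshold 0.05). The log2FC is line 9 over line 12, and its SE was taken as |log2FC| over the root of F. CPM and normalized counts use TMM library sizes, and log2 CPM a pseudocount of 0.5. The Wild type was placed on the same scale through TMM over all 12 libraries. *StRIK* was compared by exact permutation tests in Python 3.11.15 with scipy 1.17.1 (numpy 2.4.6, pandas 2.3.3). Replicates are biological per the study's methods, and each line is 1 clone, so the p-values cover spread within lines. The sources used here name no removal of PCR copies, so limits cover counting error only.

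Alternatives were RLE size factors, limma-voom (limma 3.58.1), DESeq2 1.42.0, total counts as sizes, no minimum count, filterByExpr, a replicate block, wider sets of libraries, removal of 9 rRNA-like and 2 chloroplast transcripts, each library left out, and, chosen after seeing the data, replicate 1 of both lines left out. Only the main edgeR fit was tested on simulated data.

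The members and lists were chosen with earlier results of these data known. Named transcripts are the *StRIK* isoforms, all called, listed transcripts with the 3 lowest p of a category or over 10000 mean normalized counts, matches to the fragment, and the leading transcripts at the floor in one line. Names and categories come from the study's supplementary lists. The reference table paired no name with these identifiers. Line 47 entered only the fits on 7 or 12 libraries, and its range is given for the called transcripts.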

Additional observations from a re-analysis of the deposited data

How the results depend on the processing

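Against 3 transcripts called between the lines, DESeq2 called 214, limma-voom 1, all 12 libraries in the fit 12, and 0 were called with replicate 1 of both lines left out. The replicate number as a block gave 0 calls (2653 at an unadjusted p under 0.05). Same-numbered deviations correlated at 0.04, −0.29 and 0.3 and not every library correlated best with its own number, so the numbers were not taken as pairs. Leaving out each library gave 0 to 5 calls, and RLE size factors, no minimum count, filterByExpr, the 7 libraries of file tag L7 and removal of rRNA-like transcripts gave 3. Of the study's list DESeq2 called 5 and the other fits 0. Transcripts without overlap numbered 5259, and 7258 to 11833 with a library left out and 17857 without replicate 1 of both lines, by construction with fewer libraries. Transcripts at the floor in one line numbered 4, then 0 with the other line at 30 or more, 5 to 11 with a library left out and 21 without replicate 1 of both lines. The *StRIK* difference of 16.4 CPM became 27.5 CPM without replicate 1 of both lines, 9.67 to 23.5 CPM with a library left out and 4.28 CPM for PGSC0003DMT400064730 alone. The replicate block kept it at 16.4 CPM (exact sign-flip test, p = 0.5).

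Of the 48 transcripts fitted singly, 9 changed sign under some alternative, each with an adjusted p of at least 0.528 there. With a library left out, the log2FC ran from −0.07 to 0.19 for PGSC0003DMT400041204, −0.55 to 0.02 for PGSC0003DMT400085583, −0.08 to 1.37 for PGSC0003DMT400079076, −0.06 to 0.23 for PGSC0003DMT400075611, −0.16 to 0.36 for PGSC0003DMT400049886, −0.24 to 0.13 for PGSC0003DMT400079161, −0.11 to 0.16 for PGSC0003DMT400089149 and −0.05 to 0.08 for PGSC0003DMT400073845. Without replicate 1 of both lines it was −0.02 for PGSC0003DMT400039369, −0.01 for PGSC0003DMT400041204 and PGSC0003DMT400073845, −0.17 for PGSC0003DMT400075611, −0.41 for PGSC0003DMT400049886 and −0.07 for PGSC0003DMT400089149. Limma-voom gave −0.07 for PGSC0003DMT400079076 and 0.02 for PGSC0003DMT400079161, for which the replicate block gave 0.03. The causes of these shifts were not tested.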
